A study of Sus scrofa with 3 samples.

Results

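De novo lipogenesis, the building of fatty acids from sugar-derived carbon, and the storage of the resulting fat in lipid droplets were followed in pig liver through 6 genes: ACLY, FASN, MLXIPL, LPIN1, G0S2 and CIDEC. They are 6 of the 25322 gene IDs in the deposited tables and were taken by symbol through their Ensembl gene IDs. They were chosen by their measured folds between these same libraries, so their values are given as a description with no test. All 6 were expressed, meaning that they were among the 13228 gene IDs with at least 1 CPM (reads scaled to 1 common library size) in at least 1 library, and the lowest of their 18 values was 5.53 CPM.

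The samples were livers of 3 male pigs at postnatal day 90, with 1 RNA library for each breed: Enshi black, a Chinese local pig; Large White, a European commercial pig; and Chinese wild boar. The labels give no genetic change, treatment, diet or feeding state for any of them, and no replicate animals. With 1 library per breed, the breed, the animal and the library cannot be told apart, and there is no test across animals.

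Liver cells turn citrate exported from mitochondria into cytosolic acetyl-CoA and then into fatty acids, and they join these to glycerol as triglyceride. Transcription of the enzymes is driven by insulin through SREBP-1c and by sugar through ChREBP, and both controls are well known in liver. Triglyceride is held in droplets whose coat proteins and lipase inhibitors set how fast it is released, and fasting liver, which takes up fatty acids from the blood, also holds such droplets.

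Levels are CPM after TMM scaling, which corrects library totals for a few very abundant genes. They are not divided by transcript length, so they are compared between libraries and not between genes. The interval after a level is a 95% exact Poisson interval and that after a fold a 95% exact binomial (Clopper-Pearson) interval, and both cover counting error only. A fold is said to pass the size rule where its whole interval lay at or beyond 2-fold. Because these are whole-liver samples, fewer cells of a type and less RNA per cell cannot be told apart.

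The 6 genes differed in which library was highest. The lipogenic enzymes ACLY and FASN and the triglyceride synthesis enzyme LPIN1 were all highest in Enshi black. The transcription factor MLXIPL was highest in Large White, at 1.85 to 2.09 times the other libraries. The droplet genes G0S2 and CIDEC were highest in Chinese wild boar, at 3.59 to 4.57 times the other libraries. Of the 18 folds between pairs of libraries, 8 passed the size rule.

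In Enshi black against Large White, 2 of the 6 passed: ACLY was higher and MLXIPL lower, where 4.69% of all expressed genes passed higher and 8.39% lower, 13.1% in all. In Chinese wild boar against Large White, 2 passed: G0S2 and CIDEC were higher, where 2.96% of all expressed genes passed higher and 3.74% lower, 6.7% in all. In Enshi black against Chinese wild boar, 4 passed: FASN and LPIN1 were higher and G0S2 and CIDEC lower, where the shares were 4.03% and 7.1%, 11.1% in all. Since the genes were picked for such differences, nothing is read from these counts. The 3 comparisons share libraries.

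**Figure D1:**
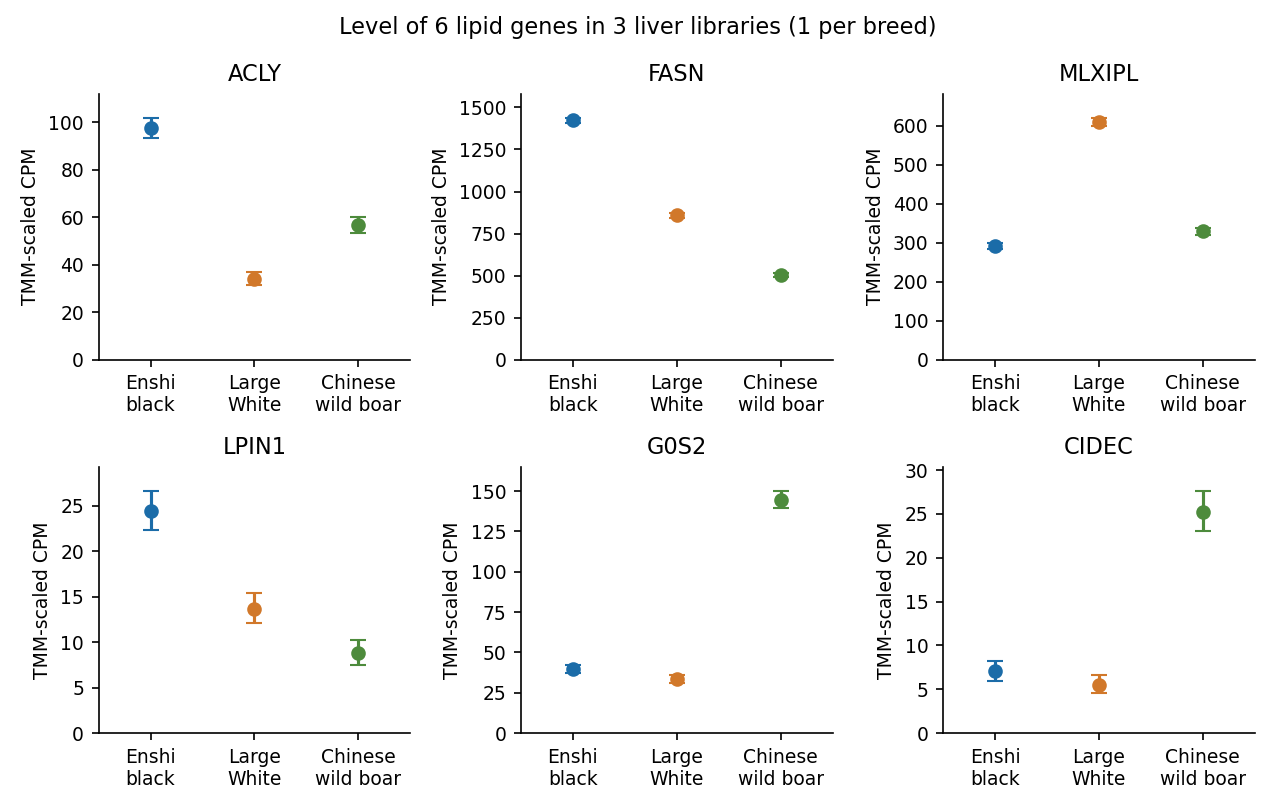
Level of each gene in each library, in TMM-scaled CPM on linear axes that start at 0. Each point is 1 library and each bar its 95% Poisson interval; ACLY, FASN and LPIN1 peak in Enshi black, MLXIPL in Large White, and G0S2 and CIDEC in Chinese wild boar.

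ACLY, ATP citrate lyase, cleaves cytosolic citrate and so supplies the acetyl-CoA from which fatty acids and cholesterol are made. Its level was 97.7 CPM in Enshi black (93.6 to 102), 34.1 in Large White (31.5 to 36.8) and 56.7 in Chinese wild boar (53.4 to 60.1). No 2 of these intervals overlapped, and Large White was the lowest. In Enshi black ACLY was 2.87-fold above Large White (2.63 to 3.13), which passed the size rule. It was 1.72-fold higher in Enshi black than in Chinese wild boar (1.60 to 1.85) and 1.66-fold higher in Chinese wild boar than in Large White (1.51 to 1.83), and neither passed.

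FASN, fatty acid synthase, carries out the whole cycle of chain building that ends in palmitate. Its level was 1423 CPM in Enshi black (1407 to 1439), 858 in Large White (845 to 871) and 504 in Chinese wild boar (494 to 514). Here Chinese wild boar, not Large White, was the lowest library. FASN was 2.82-fold higher in Enshi black than in Chinese wild boar (2.76 to 2.89) and passed. The step from Enshi black to Large White was 1.66-fold (1.63 to 1.69) and that from Large White to Chinese wild boar 1.70-fold (1.66 to 1.75), and neither passed.

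ACLY and FASN thus differed in their order between Large White and Chinese wild boar. The ratio of FASN to ACLY counts within a library does not depend on how libraries are scaled. Enshi black had 14.6, Large White 25.2 and Chinese wild boar 8.89. Between Large White and Chinese wild boar this ratio differed by 2.83-fold (2.56 to 3.13, a 95% normal interval on the log scale from the 4 counts). Citrate for ACLY leaves the mitochondrion through the carrier SLC25A1, which was at 125, 157 and 336 CPM in Enshi black, Large White and Chinese wild boar. The carrier was thus highest in Chinese wild boar, and the ratio of ACLY to SLC25A1 counts was 4.64-fold higher in Enshi black than there (4.26 to 5.05).

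Most other enzymes of the pathway passed in no pair. Acetyl-CoA carboxylase ACACA, which makes the malonyl-CoA that FASN uses, had 126, 59.0 and 82.4 CPM in the same order of libraries. It shared the order of ACLY, and its ratio of Enshi black to Large White was 2.14 (2.0 to 2.29), just short of passing. The desaturase SCD, which turns saturated chains into monounsaturated ones, had 888, 466 and 498 CPM. The elongase ELOVL6 had no matched gene ID. Of the 10 expressed genes of fatty acid synthesis other than ACLY and FASN, none passed between Enshi black and Large White, and their median log2 fold was 0.21 against 0.010 over all expressed genes. Only SLC25A1 passed in the other pairs: it was 2.13-fold higher in Chinese wild boar than in Large White (2.04 to 2.23) and 2.69-fold higher than in Enshi black (2.58 to 2.82).

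MLXIPL encodes ChREBP, the factor that switches on glycolytic and lipogenic genes when sugar is abundant. Its level was 291 CPM in Enshi black (284 to 299), 610.2 in Large White (599 to 621) and 329 in Chinese wild boar (321 to 337). Large White alone was high, and the other libraries lay 1.13-fold apart (1.09 to 1.17). MLXIPL was 2.09-fold lower in Enshi black than in Large White (2.03 to 2.16), which passed, and 1.85-fold lower in Chinese wild boar (1.80 to 1.91), which did not. The pass was narrow: with total counts in place of TMM the ratio of Enshi black to Large White was 0.51, against 0.477, and did not pass. MLX, the partner with which ChREBP binds DNA, was at 55.6, 61.8 and 71.0 CPM. The ratio of MLXIPL to MLX counts was therefore 9.88 in Large White against 5.23 in Enshi black and 4.64 in Chinese wild boar.

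Genes known to respond to ChREBP had no common order. Liver pyruvate kinase PKLR, the classic ChREBP target, was at 40.5, 98.6 and 94.4 CPM in Enshi black, Large White and Chinese wild boar. The fructose-metabolising ketohexokinase KHK had 194, 420.4 and 371 CPM. Both shared the order of MLXIPL, but with Chinese wild boar close to Large White. They were lowest in Enshi black, where FASN and ACLY were highest. The arrestin-like gene ARRDC4 had 32.9, 19.7 and 14.1 CPM, in the order of FASN.

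The 9 expressed genes of the carbohydrate response list, none of them among the 6, gave no single direction. In Enshi black against Large White, 0 passed higher and 2 lower, and in Chinese wild boar against Large White 1 passed higher and 1 lower. The 1 that passed higher was the hormone FGF21, at 18.3-fold (11.9 to 29.6), which is also on the fasting list below. In Enshi black against Chinese wild boar 2 passed higher and 3 lower. The latter included FGF21 and the glycerol-3-phosphate dehydrogenase GPD1, which was 2.73-fold lower (2.60 to 2.87). Over all expressed genes 4.69%, 2.96% and 4.03% passed higher in these pairs and 8.39%, 3.74% and 7.1% lower. The medians of the list were 0.28, 0.016 and -0.30 on the log2 scale in these pairs, and those of all expressed genes 0.010, 0.0011 and 0.0095.

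Of 11 other expressed regulators of lipogenesis, MID1IP1, which promotes the assembly of acetyl-CoA carboxylase into its active polymer, followed FASN. It was at 127, 67.1 and 47.3 CPM in Enshi black, Large White and Chinese wild boar, and 2.69-fold higher in Enshi black than in Chinese wild boar (2.5 to 2.9). PPARGC1B, a coactivator of SREBP and nuclear receptors, followed MLXIPL at low levels of 1.81, 7.37 and 2.43 CPM. It was 4.08-fold lower in Enshi black (2.85 to 5.97) and 3.04-fold lower in Chinese wild boar (2.18 to 4.30) than in Large White. The orphan receptor NR0B2, a repressor of other nuclear receptors, and INSIG1, which holds SREBP in the endoplasmic reticulum, were both highest in Chinese wild boar. They were 3.95-fold (3.54 to 4.41) and 2.30-fold (2.22 to 2.39) higher there than in Large White. SREBF2, the SREBP gene of cholesterol synthesis, had 211, 201 and 305 CPM and passed in no pair. SREBF1 and THRSP had no matched gene ID and are not analysed here.

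LPIN1, lipin 1, removes the phosphate of phosphatidate to give the diacylglycerol from which triglyceride is made, and it also acts in the nucleus as a coactivator of fatty acid oxidation genes. Its level was 24.4 CPM in Enshi black (22.4 to 26.6), 13.7 in Large White (12.1 to 15.4) and 8.79 in Chinese wild boar (7.54 to 10.2). The order was that of FASN, on far fewer reads, with 527, 267 and 174 counts. LPIN1 was 2.78-fold higher in Enshi black than in Chinese wild boar (2.34 to 3.32) and passed. In Enshi black it was 1.79-fold above Large White (1.54 to 2.08) and 1.55-fold lower in Chinese wild boar than in Large White (1.28 to 1.89), and neither passed. The ratio of LPIN1 to FASN counts differed by no more than 1.1-fold between any 2 libraries, and each of its 3 intervals held 1.

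The other genes of the triglyceride pathway did not share this order. LPIN3, the paralog of LPIN1 with a matched gene ID, was at 31.2, 36.7 and 39.3 CPM in Enshi black, Large White and Chinese wild boar. The ratio of LPIN1 to LPIN3 counts was 0.782, 0.372 and 0.224, a 3.50-fold difference between Enshi black and Chinese wild boar (2.86 to 4.27). DGAT1, which adds the last fatty acid of triglyceride, had 44.7, 48.6 and 74.5 CPM and was highest where LPIN1 was lowest. The acyltransferases of the first step also differed from LPIN1: GPAT3 had 5.0, 19.3 and 10.2 CPM, and GPAT4 138, 144 and 214. Of the 8 expressed genes of phosphatidate and triglyceride synthesis other than LPIN1, only GPAT3 passed, 3.86-fold lower in Enshi black than in Large White (3.11 to 4.82), and none passed in the other pairs. LPIN2 and DGAT2 had no matched gene ID.

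**Figure D2:**
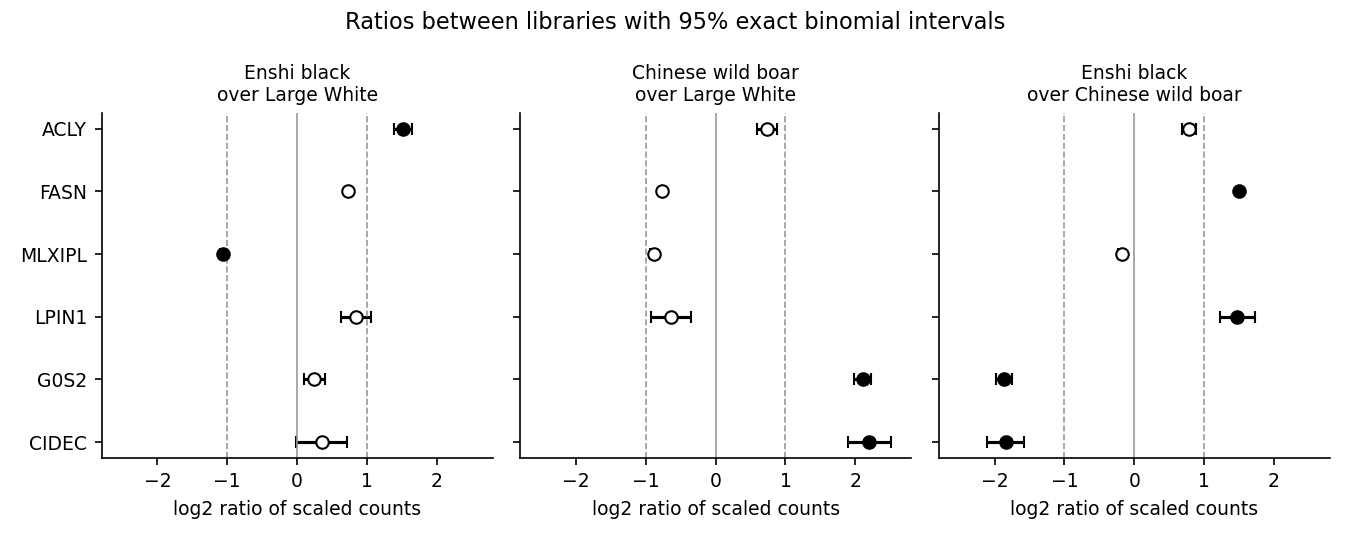
Ratio of scaled counts for each gene in each pair of libraries, on a log2 axis, with 95% exact binomial intervals. Filled points passed the size rule and open points did not; the dashed lines mark 2-fold, and 8 of the 18 points are filled.

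G0S2 is a small protein that binds and inhibits adipose triglyceride lipase, the product of PNPLA2, and so slows the breakdown of stored fat. Its level was 39.8 CPM in Enshi black (37.1 to 42.5), 33.6 in Large White (31.1 to 36.2) and 144 in Chinese wild boar (139 to 150). Chinese wild boar stood far above the others, which lay 1.18-fold apart (1.07 to 1.31). G0S2 was 4.30-fold higher in Chinese wild boar than in Large White (3.95 to 4.69) and 3.63-fold higher than in Enshi black (3.37 to 3.93), and both passed.

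The lipase that it inhibits differed less. PNPLA2 was at 76.8, 75.8 and 98.0 CPM in Enshi black, Large White and Chinese wild boar, and ABHD5, the activator that competes with G0S2 for the lipase, at 42.6, 35.0 and 54.7 CPM. Neither passed in any pair. The ratio of inhibitor to lipase, G0S2 to PNPLA2 counts, was 0.518, 0.443 and 1.47, which is 3.33-fold higher in Chinese wild boar than in Large White (2.99 to 3.71). None of the 8 expressed genes of lipolysis other than G0S2 passed in any of the 3 pairs. Their median log2 fold was 0.49 in Chinese wild boar against Large White, where that of all expressed genes was 0.0011. Among them the lysosomal lipase LIPA had 105, 97.7 and 133 CPM and the secreted hepatic lipase LIPC 146, 103 and 135.

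CIDEC, also called FSP27, sits where lipid droplets touch and lets lipid pass from the smaller to the larger one, so that droplets grow. Its level was 7.04 CPM in Enshi black (5.97 to 8.26), 5.53 in Large White (4.53 to 6.67) and 25.3 in Chinese wild boar (23.1 to 27.6). The intervals of Enshi black and Large White overlapped, and that of Chinese wild boar lay above both. CIDEC was 4.57-fold higher in Chinese wild boar than in Large White (3.71 to 5.68) and 3.59-fold higher than in Enshi black (2.99 to 4.33), and both passed. Between Enshi black and Large White the ratio was 1.27 (0.989 to 1.65), a difference not detectable at 152 and 108 counts.

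G0S2 and CIDEC kept nearly 1 proportion in all 3 libraries. The ratio of CIDEC to G0S2 counts was 0.177, 0.165 and 0.175 in Enshi black, Large White and Chinese wild boar. The largest difference, Enshi black over Large White, was 1.08-fold (0.824 to 1.41), and each of the 3 intervals held 1. Both genes were picked by their folds between these same libraries, so nothing is read from this likeness.

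**Figure D3:**
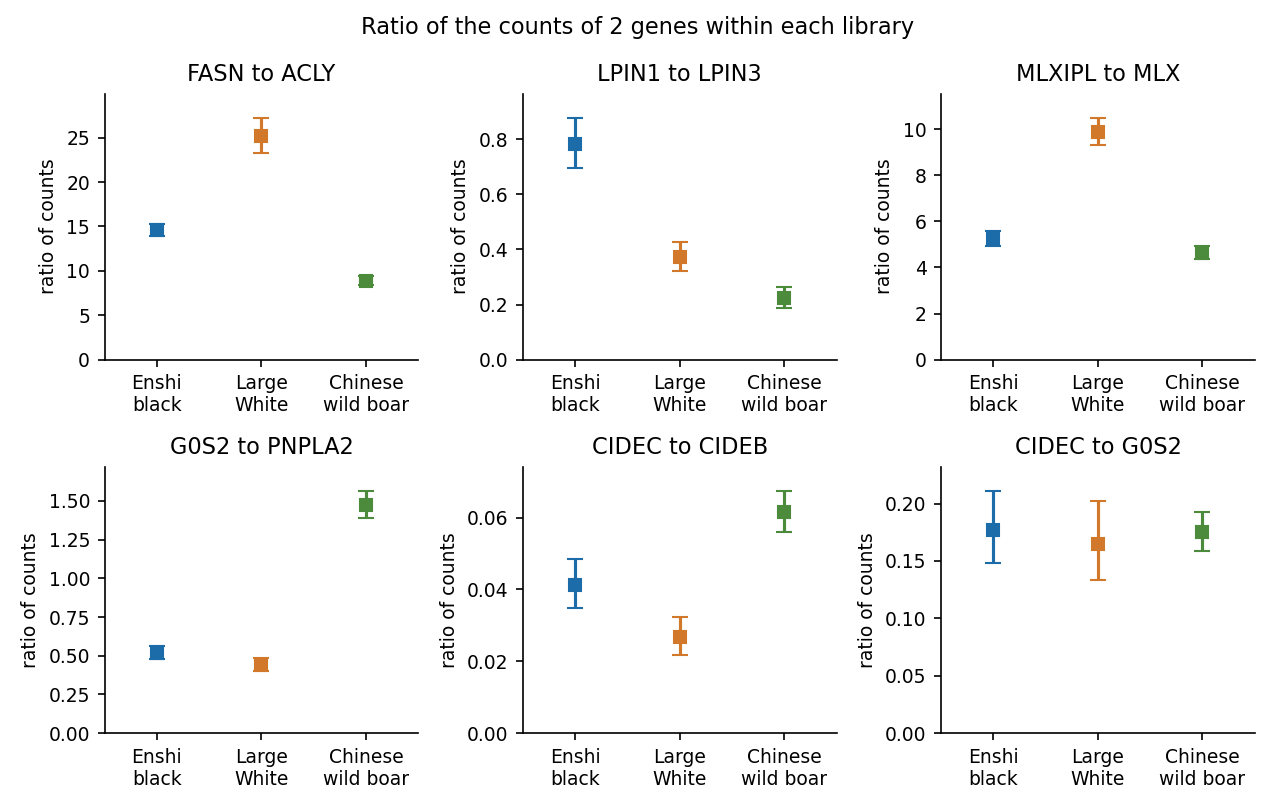
Ratio of the counts of a pair of genes within each library, which does not depend on scaling between libraries, on linear axes from 0 with 95% exact binomial intervals. The ratio of G0S2 to PNPLA2 is 1.47 in Chinese wild boar against 0.518 and 0.443, while that of CIDEC to G0S2 stays between 0.165 and 0.177.

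Several other droplet proteins were also highest in Chinese wild boar. CIDEB, the CIDE paralog of hepatocytes that acts in lipoprotein loading, was at 171, 207 and 411 CPM in Enshi black, Large White and Chinese wild boar. PLIN5, a droplet coat protein that tethers mitochondria, had 27.0, 42.5 and 74.1 CPM, and FITM1, which helps partition fat into droplets, 1.20, 1.28 and 4.90. Against Enshi black, Chinese wild boar was 2.40-fold higher for CIDEB (2.31 to 2.5), 2.75-fold for PLIN5 (2.49 to 3.03) and 4.07-fold for FITM1 (2.62 to 6.54). PLIN4, a droplet coat protein best known from adipocytes, differed in pattern, with 8.16, 25.9 and 21.4 CPM, and was lowest in Enshi black. PLIN4, BSCL2 and HSD17B11 were highest in Large White, BSCL2 by little, and ACSL3 and AUP1 were highest in Enshi black. The ratio of CIDEC to CIDEB counts was still 2.31-fold higher in Chinese wild boar than in Large White (1.87 to 2.85).

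Of the 9 expressed droplet genes other than CIDEC, 4 passed in Enshi black against Chinese wild boar, and all 4 were lower in Enshi black. Over all expressed genes, 4.03% passed higher and 7.1% lower in that pair. In Chinese wild boar against Large White 1 passed higher, FITM1, where 2.96% of all expressed genes did. In Enshi black against Large White 1 passed lower, PLIN4, where 8.39% of all expressed genes did. The list was chosen with earlier results of these data known, so nothing is read from these counts. The medians were -0.40, 0.21 and -0.28 on the log2 scale in the same order of pairs, and the 0.21 became -0.0072 where only genes that reached 10 CPM were kept. PLIN2, PLIN3 and CIDEA had no matched gene ID and are not analysed here.

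G0S2 and CIDEC are also expressed in adipocytes and are induced in fasting liver through the receptor PPARA, so markers of both were read beside them. Of 9 adipocyte markers, 4 had a gene ID, with a summed level of 86.1, 102 and 70.3 CPM in Enshi black, Large White and Chinese wild boar, nearly all of it the complement protease CFD. PLIN1, the adipocyte droplet coat, was at 4.54, 2.05 and 5.46 CPM, the lipase LIPE at 2.22, 2.1 and 3.23, and ADRB3 had 1, 6 and 0 counts. PLIN1 was 2.67-fold higher in Chinese wild boar than in Large White (1.84 to 3.93), and its ratio of Enshi black to Chinese wild boar was 0.832 (0.626 to 1.1). Neither passed. ADIPOQ, LEP, FABP4, CIDEA and ADIRF had no matched gene ID, and the part of adipocytes in the difference was not tested.

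Among 10 expressed fasting and PPARA target genes, 3 passed higher in Chinese wild boar than in Large White and none lower. Over all expressed genes, 2.96% passed higher and 3.74% lower in that pair. The 3 genes included the hormone FGF21 at 18.3-fold (11.9 to 29.6), which is also on the carbohydrate response list. The others were CPT1A, which admits fatty acids to mitochondria, at 3.44-fold (3.28 to 3.62), and PDK4, which blocks pyruvate oxidation, at 2.18-fold (2.05 to 2.32). In Enshi black, Large White and Chinese wild boar, FGF21 was at 2.78, 1.13 and 20.6 CPM and CPT1A at 208, 108 and 372. Both shared the order of G0S2 and CIDEC. PDK4 was at 27.8, 75.9 and 166 CPM in the same order of libraries. It was lower in Enshi black than in Large White by 2.73-fold (2.48 to 3.0), which neither G0S2 nor CIDEC was. PPARA itself and its target ANGPTL4 passed in no pair. Of the 10, none passed higher and 1 lower in Enshi black against Large White, and none higher and 2 lower in Enshi black against Chinese wild boar. Over all expressed genes 4.69% and 4.03% passed higher and 8.39% and 7.1% lower in these 2 pairs. The median log2 fold of the list was 0.59 in Chinese wild boar over Large White, 0.48 in Enshi black over Large White and -0.044 in Enshi black over Chinese wild boar, and the last became 0.050 with total counts. Over all expressed genes these medians were 0.0011, 0.010 and 0.0095, and the last became 0.10 with total counts. The list was chosen with earlier results of these data known, so nothing is read from its counts. The feeding state of the animals is not given in the sources used here, and its part was not tested.

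**Figure D4:**
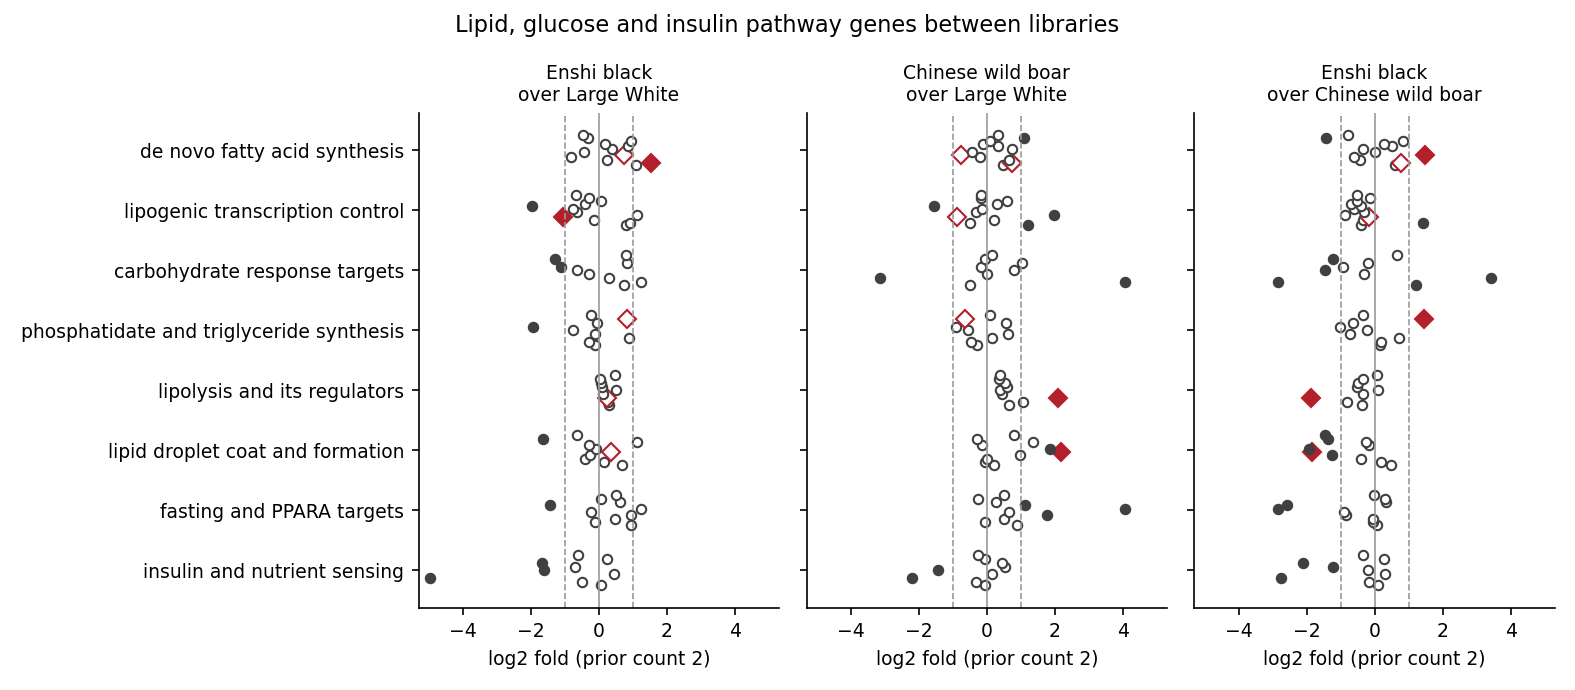
Log2 fold of every expressed gene of the 8 pathway lists in the 3 pairs of libraries, with red diamonds for the 6 chosen genes and circles for the other genes. Filled symbols passed the size rule, and the dashed lines mark 2-fold. In Enshi black over Chinese wild boar 4 of the 9 other droplet genes are filled on the left. Over all expressed genes 7.1% passed lower in that pair.

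The place of the largest folds among all genes is given as a description. Among the 13228 expressed genes, a ratio of Chinese wild boar to Large White at least as high as that of CIDEC was seen for 150 and as high as that of G0S2 for 163. For FASN, 579 genes had as high a ratio of Enshi black to Chinese wild boar, and for ACLY, 607 had as high a ratio of Enshi black to Large White.

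The 73 other expressed genes of the 8 lists give the setting. In Enshi black against Large White 0 passed higher and 9 lower, which is 12.3% of them. In Chinese wild boar against Large White 7 passed higher and 4 lower (15.1%), and in Enshi black against Chinese wild boar 3 passed higher and 12 lower (20.5%). The shares of all expressed genes in these pairs were 13.1%, 6.7% and 11.1%. The lists were chosen with earlier results of these data known, so nothing is read from the difference. Chinese wild boar was the highest library for 33 of the 73, Large White for 21 and Enshi black for 19. Over all expressed genes Enshi black was the highest for 37.4%, Large White for 33.1% and Chinese wild boar for 29.5%.

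Genes with the nearest profile were then sought among 5473 other named genes with a mean of at least 10 CPM, by the Euclidean distance between log2(CPM + 0.5) values centred over the 3 libraries. A profile of 3 libraries is a weak measure of likeness. Nearest to G0S2 were HADHA, an enzyme of mitochondrial fatty acid oxidation, at a distance of 0.046, CIDEC at 0.065 and the mannose enzyme PMM1 at 0.29. Nearest to CIDEC were G0S2, HADHA and PMM1. Within 0.25 lay 2 genes for G0S2 and 2 for CIDEC, against 31 for FASN, 39 for LPIN1, 54 for ACLY and 124 for MLXIPL. G0S2 and CIDEC were each among the 2 of the other. Since the chosen genes were picked by their folds between these same libraries, nothing is read from these numbers of neighbours. HADHA had 160.3, 137 and 605 CPM in Enshi black, Large White and Chinese wild boar.

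LPIN1 was the third nearest to FASN, at 0.11, after the integrin ITGA4 and the cell cycle factor MYBL2. MID1IP1 was the third nearest to LPIN1, at 0.084, after the endothelial receptor FLT1 and the transcription factor ETS1. The genes nearest to ACLY were ORAI3, ST3GAL5 and EDNRB, none of them an enzyme of fatty acid synthesis. Those nearest to MLXIPL were DTX2, CYP2A19 and the acyl-CoA synthetase ACSF2, all highest in Large White.

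**Figure D5:**
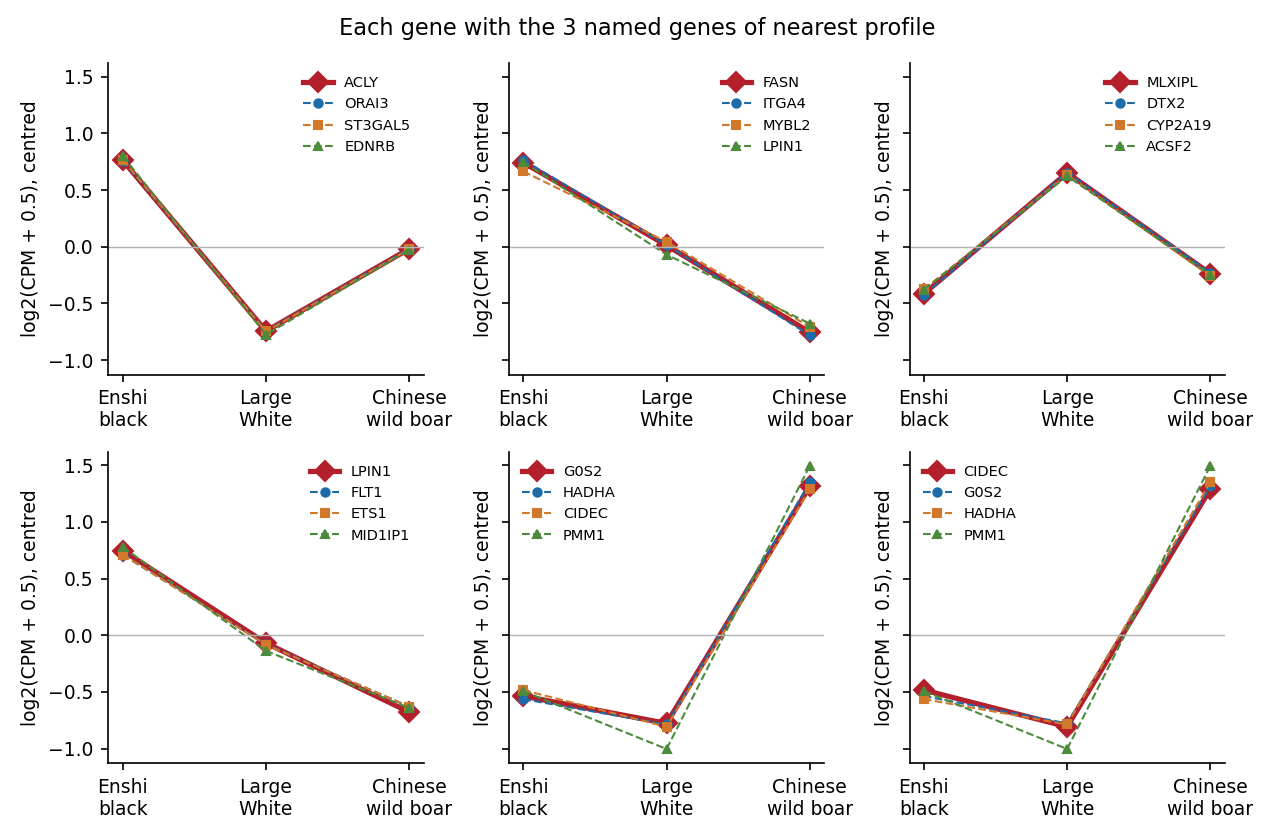
Profile of each gene (thick red line) and of its 3 nearest named genes (dashed lines) over the 3 libraries, as log2(CPM + 0.5) centred on the mean of the libraries. G0S2, CIDEC and HADHA share 1 shape with a peak in Chinese wild boar, and FASN and LPIN1 step down from Enshi black to Chinese wild boar.

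The libraries were alike in depth, with 19982627 to 20654571 gene counts, and hepatocyte genes such as ALB, TF and HNF4A were abundant in all 3, while the gene ID of APOA1 had at most 2 counts in any. ALB itself passed higher against Large White in both other libraries, by 2.63-fold in Enshi black and 2.12-fold in Chinese wild boar. TTR and CPS1 were instead highest in Large White. TTR had 2543, 4107 and 3497 CPM in Enshi black, Large White and Chinese wild boar, and CPS1 had 1024, 1378 and 1254. TF, HNF4A, TTR and CPS1 passed in no pair. The Enshi black library stood apart in 1 respect: 47 gene IDs had at most 3 counts there and at least 5 CPM in both others, against 1 such ID in each other library. None of the 6 genes was among these. Folds moved with gene span in all 3 pairs, over 10 equal groups by span. The median log2 fold of Enshi black over Chinese wild boar went from -0.18 in the shortest group to 0.23 in the longest. That of Enshi black over Large White went from -0.13 to 0.070, and that of Chinese wild boar over Large White from 0.064 to -0.17. In Enshi black over Chinese wild boar, the group of G0S2 had the -0.18, the group of CIDEC -0.22, that of FASN -0.15, and that of LPIN1 0.22. Divided by the medians of their groups, all 18 folds kept their direction and their side of the size rule. LPIN1 in Enshi black over Chinese wild boar then passed narrowly, at 2.39 with the interval bound nearest to 1 at 2.01. Stellate cell markers summed to 1213 CPM in Enshi black against 377 and 593 in Large White and Chinese wild boar, most of it COL3A1 at 837, 232 and 383. Of the 7 expressed ones, 5 passed higher in Enshi black against Large White and 0 lower, where 4.69% of all expressed genes passed higher. ACTA2 and PDGFRB passed in no pair, and PDGFRB was lowest in Enshi black, at 15.9, 18.0 and 18.6 CPM. The 6 matched macrophage markers summed to 701, 926 and 804 CPM, most of it C1QA at 548, 522 and 517. Of these 6, CSF1R, MARCO and CLEC4F passed lower in Enshi black against Large White, by 7.12-fold, 3.97-fold and 2.51-fold, and the median log2 fold of the list was -1.20. Of 7 endothelial markers, 3 had a gene ID, and they summed to 466, 711 and 338 CPM. STAB1 had 186, 499 and 168 CPM, PECAM1 111, 95.6 and 108, and the receptor KDR 169, 116 and 61.7. KDR was 2.74-fold higher in Enshi black than in Chinese wild boar. STAB1 was 2.68-fold lower in Enshi black and 2.97-fold lower in Chinese wild boar than in Large White. PECAM1 passed in no pair. The part of these cell types in the differences of the 6 genes was not tested.

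All 8 passing folds rest on counting error alone. With a coefficient of variation of 0.2 assumed for animals of 1 breed, those of G0S2 and CIDEC still passed and those of ACLY, FASN, MLXIPL and LPIN1 did not, and under 0.4 none passed.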

How the data were processed

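RNA of 3 pig livers was read as paired ends, per the labels' protocols. The authors deposited raw counts of reads per gene, with no scaling. Their processing notes list HTSeq 0.6.1, TopHat2 2.1.0 and edgeR 3.16.3, with Sscrofa10.2 as the genome build, per the submitters' processing notes. The annotation release, strand setting and handling of reads with several alignments were not given in the sources used here, so genes with close copies or overlapping neighbours are uncertain. In RefSeq (Sscrofa11.1), LPIN1 and CIDEC each overlap an unnamed locus.

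Each file listed 25322 gene IDs, and 5 further rows without a gene (reads on no feature were 18.9% to 22.0% of the reads in a file, ambiguous ones 1.89% to 2.49%), which were left out. Symbols were matched by Ensembl ID for 11804 IDs. Of 117 genes on 8 pathway lists, 80 had an ID. No coordinates or sequences are printed. The 6 genes and the lists were chosen with earlier results of these data known.

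Counts were scaled with TMM factors (1.04, 0.978 and 0.979 for Enshi black, Large White and Chinese wild boar) from edgeR 4.0.16 in R 4.3.3, computed on the 13228 IDs that reached 1 CPM in any library. One count was worth 0.0463 to 0.0512 CPM. Intervals were computed with scipy 1.17.1, numpy 2.4.6 and pandas 2.3.3 under Python 3.11.15, and plots with matplotlib 3.10.9. The labels describe no molecular identifiers, so reads need not be independent molecules. List medians used log2 folds with a prior count of 2 and left the 6 genes out.

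Besides the 6 genes, up to 4 expressed genes per list that passed in any pair were named by the bound farthest from 1, filled up with abundant genes where fewer than 2 passed. Partners, paralogs and regulators fixed by name were added, whatever their value. KHK, ARRDC4, SREBF2, PLIN1 and other genes outside this rule were named after their values were seen. A gene taken by the rule is not reported here. The interval and size rule were tested on simulated counts. The alternatives were total counts or DESeq2 1.42.0 size factors as scaling, a 10 CPM filter or none, near bounds (the interval bound nearest to 1) of 1.5 and 4 in place of 2, a 99.9% interval, a normal interval with a coefficient of variation of 0.2 or 0.4 assumed for animals of 1 breed, and a prior count of 0.5. A correction for gene span and TMM factors from only the 2 libraries compared were added after seeing the data.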

Additional observations from a re-analysis of the deposited data

How the results depend on the processing

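Of the alternatives, 4 alter the folds of the 6 genes themselves (the scalings and the span correction), and no fold changed direction under these. With DESeq2 size factors, TMM factors from the 2 compared libraries alone or the correction for gene span, each of the 18 kept its side of the size rule. With total counts the ratio of Enshi black to Large White for MLXIPL was 0.51 and did not pass, and with a wider exact interval its 0.477 did not pass. A near bound of 4 left none passing, and a coefficient of variation of 0.4 assumed for animals also left none. These lost calls were ACLY 2.87 and MLXIPL 0.477 (Enshi black over Large White), G0S2 4.30 and CIDEC 4.57 (Chinese wild boar over Large White), and FASN 2.82, LPIN1 2.78, G0S2 0.275 and CIDEC 0.279 (Enshi black over Chinese wild boar). At 0.2, ACLY, FASN, MLXIPL and LPIN1 were lost. A near bound of 1.5 added ACLY 1.66, FASN 0.587 and MLXIPL 0.54 (Chinese wild boar over Large White), FASN 1.66 and LPIN1 1.79 (Enshi black over Large White) and ACLY 1.72 (Enshi black over Chinese wild boar). Apart from the 0.51 of MLXIPL, where the scaling moved the fold, these changes follow from the intervals and bounds themselves.

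With total counts, 6 levels left their Poisson intervals: ACLY 102 CPM in Enshi black, FASN 1487, 839 and 493 in Enshi black, Large White and Chinese wild boar, and MLXIPL 304 and 597 in Enshi black and Large White. That scaling moved the median over all expressed genes for Enshi black to a log2 fold of 0.10 against either other library.

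Over all genes, 1731, 886 and 1472 passed in Enshi black against Large White, Chinese wild boar against Large White and Enshi black against Chinese wild boar. A near bound of 1.5 gave 3503, 2120 and 2976, and of 4 gave 594, 201 and 507. An assumed variation of 0.2 gave 946, 393 and 833, and of 0.4 gave 563, 184 and 491. A 10 CPM filter, which tests fewer genes, gave 990, 546 and 820. The wider exact interval gave 585 for Chinese wild boar against Large White.

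Among the lists, total counts changed the number passing in Enshi black against Large White from 0 to 1 for fatty acid synthesis, from 1 to 2 for regulators and from 2 to 1 for carbohydrate response genes. The 10 CPM filter left 0 regulators passing in that pair and 0 droplet genes in Chinese wild boar against Large White. In the latter pair it moved the median log2 fold from -0.16 to 0.022 for regulators, from -0.089 to 0.097 for triglyceride synthesis, from 0.21 to -0.0072 for droplet genes and from -0.045 to -0.16 for insulin and nutrient sensing, and in Enshi black against Chinese wild boar from -0.18 to -0.35 for fatty acid synthesis. Depth limits CIDEC most, with 108 to 500 counts. No paired analysis was possible because each breed has 1 library and the labels give no replicate numbers.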

Other observations

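Among 9 expressed genes of insulin and nutrient sensing, which act upstream of lipogenesis, IGFBP1 and IRS1 passed as higher in Large White than in both other libraries. IGFBP1, which binds the IGFs and whose liver transcript insulin represses, was at 17.3, 544 and 118 CPM in Enshi black, Large White and Chinese wild boar. IRS1, an adaptor of the insulin receptor, had 23.6, 72.6 and 26.8 CPM, so that Large White was 3.07-fold above Enshi black (2.78 to 3.41) and 2.71-fold above Chinese wild boar (2.45 to 3.0). IGFBP1, IRS1 and MLXIPL were thus each highest in Large White. The gluconeogenic enzyme PCK1 had 577, 937 and 1345 CPM and was 2.33-fold lower in Enshi black than in Chinese wild boar (2.28 to 2.38). PRKAA1, a catalytic subunit of AMP-activated kinase, had only 19, 59 and 82 counts and was 4.71-fold lower in Enshi black than in Chinese wild boar (2.83 to 8.21). Of the 9 expressed genes of this list, none passed higher in any of the 3 pairs, and 3, 2 and 3 passed lower in Enshi black against Large White, Chinese wild boar against Large White and Enshi black against Chinese wild boar. Over all expressed genes 8.39%, 3.74% and 7.1% passed lower in these pairs and 4.69%, 2.96% and 4.03% higher.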
